A study of Mus musculus with 18 samples.

Results

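The genes described here encode the ATG conjugation machinery and proteins that read the lipid PI3P: Atg7, Atg3, Atg10, Atg12, Atg5, Atg16l1, Atg4b, Wipi1, Wipi2 and Zfyve1. They were picked by gene symbol from the count table, with earlier results of these data known, and are 10 of its 55291 genes. RNA was measured in mouse oocytes in a series on VPS34, its activation of RAB7, Retromer and the removal of mitochondria by autophagy. All groups carried floxed Vps34 (gene symbol Pik3c3), and all females were 5 weeks old and hormone treated. The control groups (Vps34f/f) had no Cre. The conditional knockout groups (ZcKO, here cKO) also had Zp3-Cre, which acts in growing oocytes, so younger oocytes and the follicle cells around them keep the gene. Germinal vesicle (GV) oocytes, fully grown and arrested before meiosis resumes, were taken 46 h after PMSG. Metaphase II (MII) oocytes, ovulated and arrested again until fertilization, were taken 14 h after hCG. Each library pooled 5 oocytes, and there were 3 libraries in each of the 4 groups (n = 3 throughout), so 12 of the 18 samples of the series were used.

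Autophagy wraps cytoplasm in a double membrane that fuses with lysosomes. VPS34 makes PI3P on the growing membrane, and PI3P-binding proteins such as WIPI2 bring in the conjugation machinery. ATG7 activates the ubiquitin-like proteins ATG12 and ATG8 (LC3 and GABARAP), ATG10 passes ATG12 to ATG5 and ATG3 passes ATG8 to the lipid phosphatidylethanolamine, with the ATG12-ATG5-ATG16L1 complex setting the place. Fully grown oocytes make almost no new RNA, so mRNA levels between GV and MII follow the storage, tail length and decay of maternal mRNAs.

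Because tail length and decay of maternal mRNAs are read from their 3′ ends, the ends of the members' annotated 3′ UTRs are shown first. Each line below gives 30 bases of the mRNA strand, written as DNA, 5′ to 3′, from the GENCODE M21 transcripts (GRCm38). Capitals mark either a cytoplasmic polyadenylation element (TTTTAT or TTTTAAT, searched in the last 100 bases) or the cleavage hexamer (AATAAA or ATTAAA, searched in the last 40 bases). Only the mRNA strand was searched, and TTTTAAT can share bases with AATAAA.
Atg16l1, element 79 bases before the end: ccagggcacatcTTTTATttatttaattat
Atg16l1, hexamer 37 bases before the end: aacttgattgtaAATAAAgaagaaattctg
Atg5, hexamer 23 bases before the end: tctagattcaatAATAAAgatgaatgtttt
Atg3, hexamer 22 bases before the end: atatccctcttaATTAAAaacttttgaaaa
Atg10, hexamer 20 bases before the end: atacaaatactaATTAAAtactcacctgct
Atg4b, hexamer 23 bases before the end: tatatataaataAATAAAgactgtctcact
Wipi1, hexamer 20 bases before the end: ggacactaattaAATAAAatcatggcaatg
Neither motif was found in these windows of Atg7, Wipi2 and Zfyve1, and Atg12 was not searched. The element was in 20.62% of 9346 tested genes with such an annotated end and the hexamer in 77.76%. The classes of change that follow are by TMM scaling, relative to the other mRNAs of a library, and by spike-in scaling hardly any gene was called higher at MII (values below). Among genes higher at MII than at GV in control oocytes 30.91% of 2993 held the element, against 10.04% of 2969 lower at MII and 20.8% of those not called. The shares in cKO oocytes were 29.15% for genes higher and 10.69% for genes lower at MII. A match describes letters in a window and is not a shown binding site, and no match says only that these letters are not there.

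The libraries held 2609783 to 4696626 gene counts, and replicate libraries were farther apart than counting noise allows (smallest chi-square 4.87 per degree of freedom). No label ties libraries to animals, so p-values measure the spread between these libraries. Pik3c3 stood at 35.5, 28.8 and 25.8 CPM (counts scaled to a library total of 1000000) in the control GV libraries and at 1.55, 1.65 and 2.67 CPM in cKO GV libraries, and at 10.6, 21.4 and 17.1 CPM in control MII against 5.36, 2.42 and 3.21 CPM in cKO MII. The genotypes did not overlap at either stage, although these counts had been seen when columns were read as control or cKO and are no independent check. All 12 oocyte markers were detected in 11 of the 12 libraries, with sums of 36070 to 53650 CPM at GV and 17970 to 21380 CPM at MII. The 20 cumulus and granulosa cell markers summed to 356 to 605 CPM at GV and 971 to 1990 CPM at MII, mostly the gene Serpine2. Of these, Ptx3 and Tnfaip6 were at 0 in every GV library but were detected at MII in both genotypes. Foxl2 was at 0 in all cKO GV libraries. At MII Amh was at 0 in every library, Amhr2 in all control and Fshr in all cKO libraries. The rest were detected in each group. The 10 blood and immune cell markers summed to 47.9 to 80.5 CPM at GV and 5.13 to 11.4 CPM at MII, mostly C1qb. Of the globin genes among them, Hbb-bs and Hbb-bt were at 0 in every library. Hba-a1, also a globin gene, was detected at GV in both genotypes and was at 0 in every MII library. These marker sums move with stage, and their part in the stage differences below was not tested.

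Per kilobase of merged exons, Atg5 was by far the most abundant of the 10 mRNAs at both stages. In control GV oocytes Atg5 stood at 244.3 ± 32.9 CPM per kb (SD), above 98.2% of the 11404 genes compared per length. Atg12 followed at 22.1 ± 2.45, Atg4b at 12.8 ± 1.71, Atg16l1 at 11.8 ± 0.901, Atg3 at 9.02 ± 1.31 and Atg10 at 6.91 ± 2.23 CPM per kb. The lowest were Wipi2 at 3.06 ± 0.160, Atg7 at 2.28 ± 0.345, Wipi1 at 2.03 ± 0.366 and Zfyve1 at 1.18 ± 0.269 CPM per kb. Neighbours in this order whose libraries overlapped were Atg4b and Atg16l1, Atg3 and Atg10, and Atg7 and Wipi1, and the other neighbours did not overlap.

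In control MII oocytes the upper end of the order was Atg5 at 320.5 ± 37.2, Atg12 at 20.2 ± 4.42, Atg3 at 18 ± 2.71 and Atg16l1 at 16.4 ± 2.48 CPM per kb, of which the last 3 overlapped in turn. Then came Atg10 at 6.49 ± 2.90, Wipi1 at 3.39 ± 0.475, Atg4b at 2.03 ± 0.673 and Zfyve1 at 1.03 ± 0.0827 CPM per kb. Wipi2 at 0.508 ± 0.0310 and Atg7 at 0.476 ± 0.210 CPM per kb had dropped to the end and overlapped. Atg4b thus moved from above 69.3% of genes to above 36.9%, Wipi2 from 36.0% to 11.5% and Atg7 from 29.4% to 10.8%. In cKO MII oocytes Atg10, at 11.9 ± 1.58 CPM per kb, stood before Atg16l1, at 9.29 ± 1.35, and the libraries of the 2 genes overlapped. These per-length levels rest on annotated exon lengths, from 1.72 kb for Atg10 to 10.54 kb for Wipi2, and not on the isoforms present in oocytes.

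**Figure D1:**
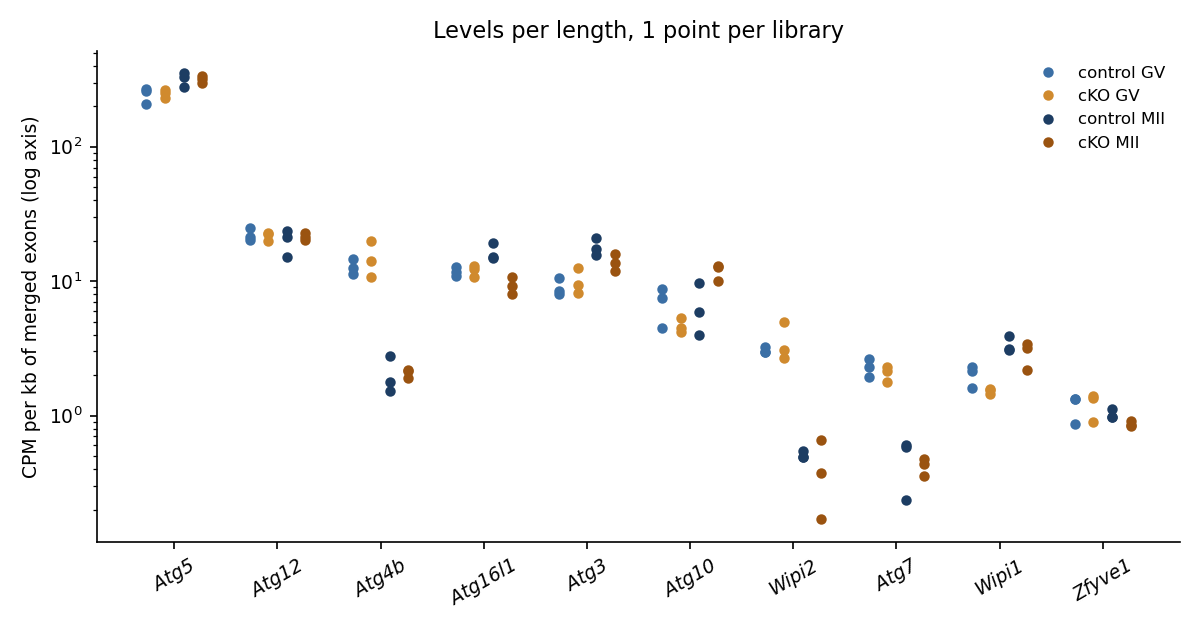
Level of each gene in CPM per kilobase of merged exons (log axis), 1 point per library, coloured by group and ordered by the control GV mean. Atg5 lies above the other genes in every library, and the MII points of Atg4b, Wipi2 and Atg7 lie below all their GV points.

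The first comparison asked how these mRNAs change from GV to MII in control and in cKO oocytes. Relative to the other mRNAs of a library (TMM scaling), 3 of the 10 fell in both genotypes, Atg7, Atg4b and Wipi2, each by 4.30-fold or more. Another 3, Atg5, Atg3 and Wipi1, rose relative to other mRNAs in both, but were lower at MII when counted against the ERCC spike-in RNAs (values below). By TMM scaling Atg16l1 was called higher at MII in control and Atg10 in cKO, both being lower by ERCC totals, and the difference between genotypes was tested and not called for either. Atg12 and Zfyve1 were called in neither genotype. In control oocytes 4 members were higher, where 30.1% of 11607 genes tested were, and 3 were lower, where 33.8% were. In cKO oocytes 4 were higher against 29.5% and 3 were lower against 34.0%. The 2 stages did not overlap for 7 of 10 members in control, against 67.3% of all genes, and for 7 of 10 in cKO, against 65.3%. These shares lie near those of all genes, so the counts are no result about the 10 as a group. The median log2 fold change of the members was 0.01 in control and -0.05 in cKO, against 0.01 and -0.04 over all genes.

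**Figure D2:**
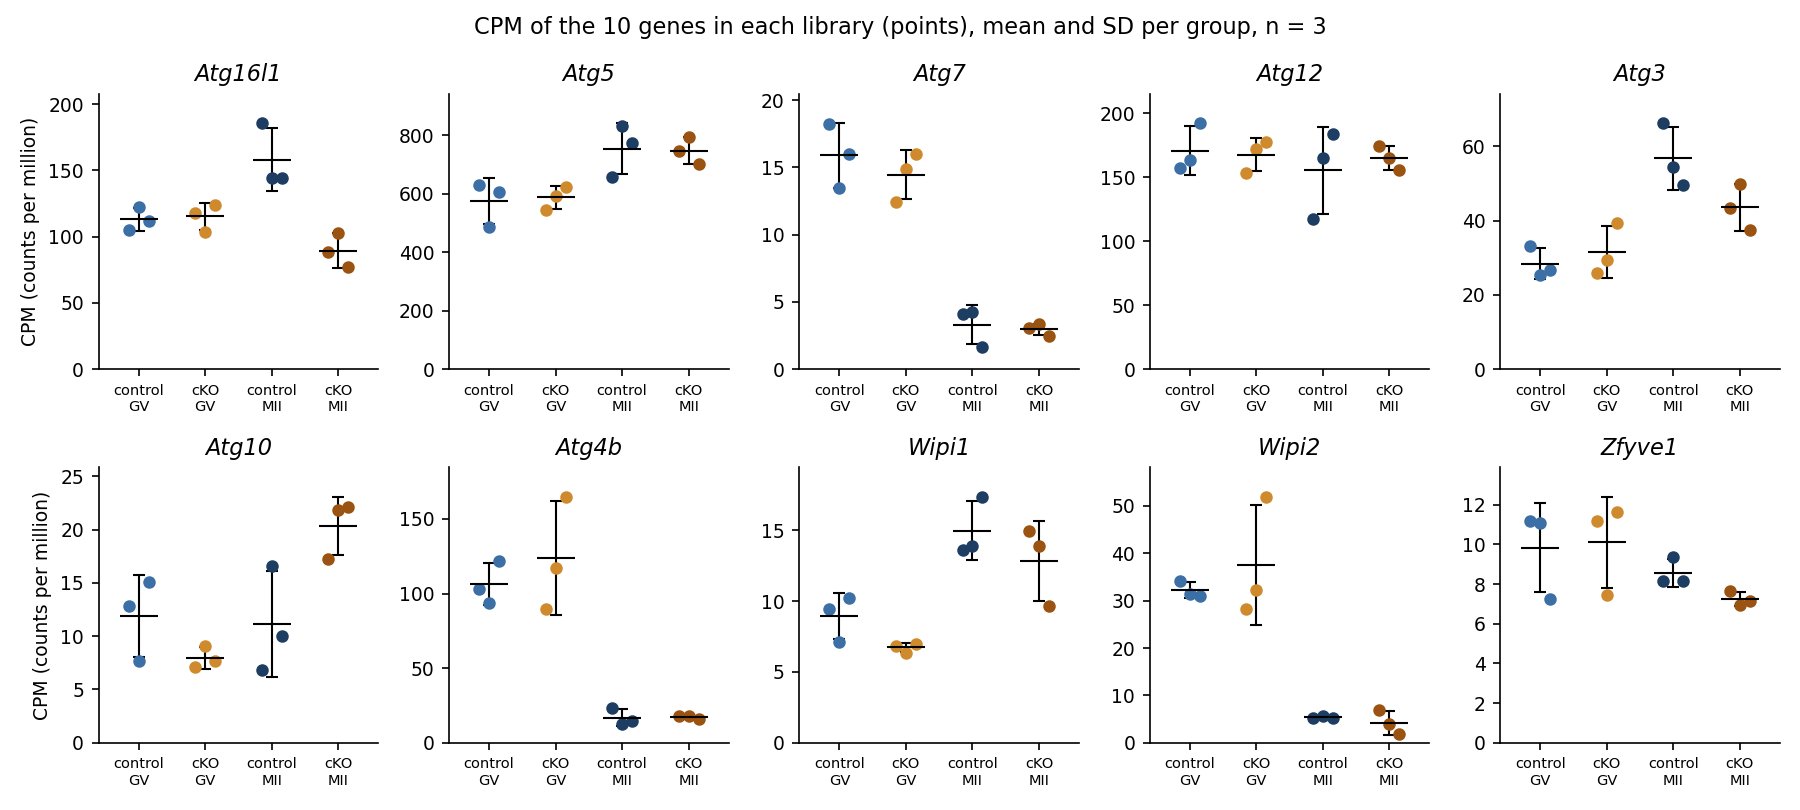
CPM of each gene (y axis, from 0, a scale of its own per panel) in every library of the 4 groups, with lines for the mean and bars for the SD, n = 3. In each genotype the stages do not overlap for Atg7, Atg4b, Wipi2, Atg5, Wipi1 and Atg16l1, the last in opposite directions. Atg16l1, Atg10 and Zfyve1 in the cKO MII group lie outside the range of the control MII libraries.

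Atg7, the E1-like enzyme that activates both ATG12 and ATG8 proteins (chromosome 6, 114643097 to 114860614), was the gene at the head of both conjugation routes and fell. Its level was 18.3, 13.5 and 16.0 CPM in control GV libraries 1 to 3 and 4.09, 4.23 and 1.63 CPM in control MII libraries. In cKO it was 12.4, 14.9 and 16.0 CPM at GV and 3.07, 3.33 and 2.50 CPM at MII. Every MII library lay below every GV library in both genotypes, and at MII the gene rested on 6 to 15 counts per library. The fall was 4.30-fold in control (log2 fold change -2.10, SE 0.35, adjusted p = 3.97e-05). This and every adjusted p below are from the quasi-likelihood test of edgeR, adjusted by Benjamini-Hochberg over all genes tested. The fall was 4.36-fold in cKO (log2 -2.12, SE 0.37, adjusted p = 6.17e-05).

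Atg3, the E2-like enzyme that hands ATG8 proteins to lipid (chromosome 16, 45158785 to 45188538), went the other way from its E1. It stood at 33.1, 25.3 and 26.8 CPM in control GV and at 66.3, 54.3 and 49.7 CPM in control MII libraries. The cKO libraries gave 25.8, 29.5 and 39.3 CPM at GV and 43.3, 49.9 and 37.4 CPM at MII. The stages were apart in control, while in cKO the highest GV library exceeded the lowest MII library. Atg3 was 2.23-fold higher at MII in control (log2 1.15, SE 0.22, adjusted p = 0.000173), with -0.59 when ERCC totals set the library sizes (adjusted p = 0.212). In cKO it was 1.53-fold higher (log2 0.61, SE 0.22, adjusted p = 0.0218), with -1.65 by ERCC totals. The cKO call was lost without cKO GV replicate 1 (adjusted p = 0.0794), without cKO GV replicate 2 (0.0767) and without cKO MII replicate 2 (0.0922), and with no filter on low counts (log2 0.55, adjusted p = 0.113).

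Atg10, the E2-like enzyme that joins ATG12 to ATG5 (chromosome 13, 90935356 to 91223968), held few counts and spread widely in control oocytes. Its level was 12.8, 7.65 and 15.1 CPM in control GV libraries and 6.82, 16.6 and 10.1 CPM in control MII libraries. In cKO it was 7.15, 9.09 and 7.67 CPM at GV and 17.2, 21.8 and 22.1 CPM at MII. The stages overlapped fully in control and were apart in cKO, where all 3 MII libraries exceeded every other library of the 12. From GV to MII the log2 fold change was 0.03 (SE 0.32, adjusted p = 0.947) in control. In cKO Atg10 was 2.82-fold higher at MII (log2 1.49, SE 0.33, adjusted p = 0.000687), and the value turned to -0.82 by ERCC totals (adjusted p = 0.116).

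Atg12, the ubiquitin-like protein of the ATG12-ATG5 conjugate (chromosome 18, 46730144 to 46741580), was called in no comparison by TMM scaling. It stood at 157, 163 and 192 CPM in control GV, 153, 172 and 177 CPM in cKO GV, 118, 165 and 184 CPM in control MII and 175, 165 and 156 CPM in cKO MII libraries. All 4 groups overlapped. From GV to MII the log2 fold change was -0.0094 (SE 0.17) in control and 0.12 (SE 0.18, adjusted p = 0.560) in cKO.

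Atg5, the acceptor of ATG12 (chromosome 10, 44268358 to 44364291), had the highest level of the 10 and a small change. It was at 631, 486 and 607 CPM in control GV and at 658, 830.4 and 773 CPM in control MII libraries. In cKO it was at 546, 592 and 624 CPM at GV and at 744.5, 793 and 703 CPM at MII. In each genotype the lowest MII library lay above the highest GV library, in control by a narrow margin. Relative to other mRNAs Atg5 rose 1.44-fold in control (log2 0.53, SE 0.16, adjusted p = 0.00658), while by ERCC totals it fell by 1.19 on the log2 scale. In cKO it rose 1.40-fold (log2 0.49, SE 0.16, adjusted p = 0.0111), while by ERCC totals it fell by 1.84 on that scale. With no filter on low counts the adjusted p was 0.110 in control and 0.122 in cKO.

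Atg16l1, which joins the ATG12-ATG5 conjugate and brings it to membranes (chromosome 1, 87755870 to 87792428), was the one searched member whose 3′ end held the element TTTTAT shown above. It stood at 105, 122 and 112 CPM in control GV and at 186, 145 and 144 CPM in control MII libraries. In cKO it stood at 118, 104 and 124 CPM at GV and at 88.5, 103 and 77.0 CPM at MII. The stages did not overlap in either genotype, with MII above GV in control and below it in cKO. The change in control was 1.55-fold up (log2 0.63, SE 0.19, adjusted p = 0.00833), with -1.16 by ERCC totals. It was no longer called without control MII replicate 1 (log2 0.43, adjusted p = 0.0560) or with no filter on low counts (adjusted p = 0.0579). In cKO the log2 fold change was -0.23 (SE 0.20, adjusted p = 0.321).

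Atg4b, the protease that trims new ATG8 proteins and frees them from lipid (chromosome 1, 93751500 to 93790610), had the smallest adjusted p of the 10 in both genotypes. It was at 103, 93.9 and 122 CPM in control GV and at 23.2, 12.7 and 14.7 CPM in control MII libraries. In cKO it was at 89.6, 117 and 165 CPM at GV and at 18, 17.9 and 15.7 CPM at MII. The stages lay far apart in both genotypes. Atg4b fell 5.64-fold in control (log2 -2.49, SE 0.26, adjusted p = 2.33e-07) and 6.47-fold in cKO (log2 -2.69, SE 0.27, adjusted p = 1.07e-07).

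Wipi2, the PI3P-binding protein that recruits ATG16L1 (chromosome 5, 142627698 to 142670588), fell with Atg4b and Atg7. It stood at 34.2, 31.4 and 31.1 CPM in control GV and at 5.18, 5.74 and 5.16 CPM (19 counts each) in control MII libraries. In cKO it stood at 28.3, 32.2 and 52.0 CPM at GV and at 6.90, 3.94 and 1.78 CPM (18, 13 and 5 counts) at MII. No MII library came near the GV range. The fall was 5.43-fold in control (log2 -2.44, SE 0.33, adjusted p = 3.79e-06) and 8.08-fold in cKO (log2 -3.01, SE 0.35, adjusted p = 6.13e-07). The difference between the genotypes' falls was -0.57 (SE 0.48, adjusted p = 0.889).

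Wipi1, a PI3P-binding relative of WIPI2 (chromosome 11, 109573331 to 109611967), moved opposite to Wipi2. It was at 9.47, 7.12 and 10.2 CPM in control GV, 13.6, 13.9 and 17.4 CPM in control MII, 6.84, 6.34 and 7.0 CPM in cKO GV and 14.9, 13.9 and 9.62 CPM in cKO MII libraries. MII lay above GV in both genotypes without overlap. Relative to other mRNAs Wipi1 rose 1.84-fold in control (log2 0.88, SE 0.28, adjusted p = 0.00982), with -0.85 by ERCC totals (adjusted p = 0.122). In cKO it rose 2.09-fold (log2 1.06, SE 0.29, adjusted p = 0.00407), with -1.22 by ERCC totals. The control call was lost with no filter on low counts (adjusted p = 0.0900).

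Zfyve1, which encodes DFCP1, a PI3P-binding marker of the membranes where autophagosomes form (chromosome 12, 83546558 to 83597222), was the lowest of the 10 per length at GV. It was at 11.2, 11.1 and 7.24 CPM in control GV, 11.2, 7.44 and 11.7 CPM in cKO GV, 8.18, 9.36 and 8.15 CPM in control MII and 7.66, 6.96 and 7.13 CPM in cKO MII libraries. The stages overlapped in both genotypes. The log2 fold change from GV to MII was -0.05 (SE 0.31, adjusted p = 0.891) in control and -0.33 (SE 0.32, adjusted p = 0.373) in cKO.

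The scale decides which of these changes is called a rise. Counts of all genes per ERCC spike-in count were 6.69 ± 2.19 in control GV, 8.94 ± 3.65 in cKO GV, 2.19 ± 0.302 in control MII and 1.92 ± 0.363 in cKO MII libraries. In libraries primed on poly(A) tails, less of an mRNA and poorer capture of it cannot be told apart. Scaled by ERCC totals, the median log2 fold change of all genes from GV to MII was -1.87 in control and -2.49 in cKO, and all 10 members were negative in both. Of the genes called, 0.612% were then higher at MII in control and 0.695% in cKO, against 47.05% and 46.43% with TMM scaling. On this scale 8 members were called lower in control, all but Atg3 and Wipi1, and 9 in cKO, all but Atg10.

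On the spike-in scale Atg4b, Wipi2 and Atg7 lay lowest again. Atg4b was at log2 -4.32 (20.0-fold lower) in control and -4.95 in cKO, Wipi2 at -4.17 and -5.23, and Atg7 at -3.85 and -4.41. Each of these lay 1.92 or more below the median of all genes on the log2 scale. Atg3 lay 1.28 above that median in control and 0.83 above it in cKO, and Wipi1 lay 1.01 and 1.26 above it. Per 1000 ERCC counts Atg4b went from 0.449, 0.658 and 1.06 counts in control GV to 0.0429, 0.0293 and 0.0355 in control MII libraries, so the stages were apart on this scale too.

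**Figure D3:**
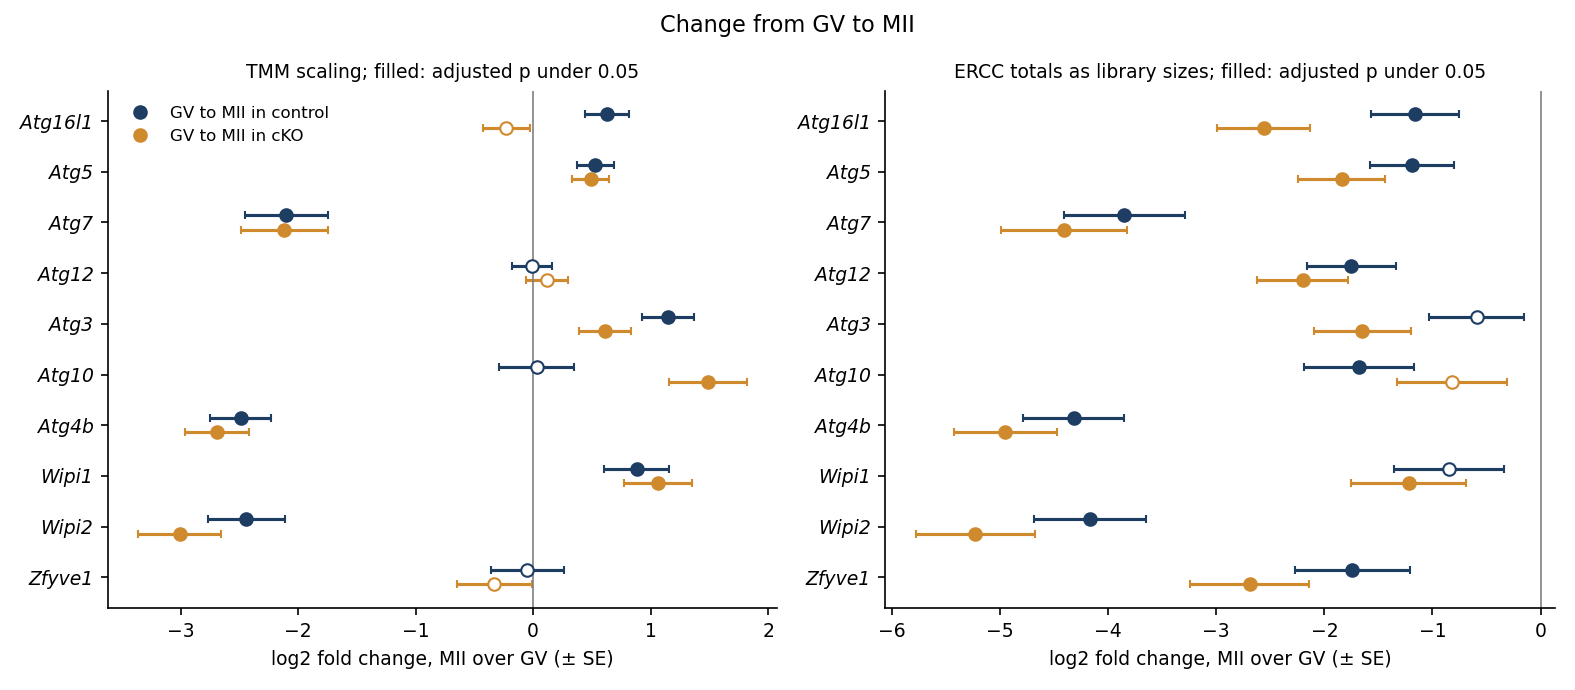
Log2 fold change from GV to MII of each gene (± SE), control and cKO, with TMM scaling (left) and with ERCC totals as library sizes (right), where filled points have an adjusted p under 0.05. Atg7, Atg4b and Wipi2 lie lowest on both sides, and Atg5, Atg3, Wipi1, Atg16l1 in control and Atg10 in cKO are above 0 on the left and below 0 on the right.

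The second comparison asked whether loss of VPS34 changes these mRNAs, in GV and in MII oocytes. At GV no member was called by edgeR (0 of 10, against 0.0825% of 10911 genes tested), and 0 were called by DESeq2. None had an unadjusted p under 0.05, against 2.20% of all genes. The log2 fold changes of cKO over control ran from -0.62 to 0.16, with a median of -0.02 against 0.01 over all genes. Atg10 was at -0.62 (SE 0.32, adjusted p = 1.0) with overlapping genotypes. Wipi1, at -0.46 (SE 0.30, adjusted p = 1.0), was the 1 member whose genotypes did not overlap, as for 7.26% of all genes. Atg4b and Wipi2 were both at 0.16, and without cKO GV replicate 3, their highest library, they were at -0.05 and -0.10.

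At MII no member was called by edgeR (0 of 10, against 0.00% of 9677 genes) or by DESeq2. The deleted gene Pik3c3, 4.57-fold lower in cKO (log2 -2.19, SE 0.39), was not called by edgeR at MII either (adjusted p = 0.530). An unadjusted p under 0.05 was found for 2 of 10, Atg16l1 and Atg10, against 9.01% of all genes. It was found for 1 of 10 without control MII replicate 1 or 3 or without cKO MII replicate 2 or 3, and the share of all genes ran from 5.22% to 15.1% with 1 library left out. Genotypes did not overlap for 3 of 10, these and Zfyve1, against 15.8% of all genes. Atg16l1 was 1.82-fold lower in cKO MII oocytes (log2 -0.87, SE 0.19, unadjusted p = 0.000719, adjusted p = 0.530), a value with 1.9% of genes below it when all are ranked by log2 fold change. All 3 cKO MII libraries, with 77.0 to 103 CPM, lay below the 144 to 186 CPM of the control libraries. Per 1000 ERCC counts the control libraries gave 0.343, 0.334 and 0.348 counts and the cKO libraries 0.180, 0.227 and 0.116, again apart. With no filter on low counts Atg16l1 was called (adjusted p = 0.00275), and DESeq2 gave an adjusted p of 0.262.

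Atg10 was 1.81-fold higher in cKO MII oocytes (log2 0.85, SE 0.32, unadjusted p = 0.0225, adjusted p = 0.530), above 97.3% of genes ranked by log2 fold change. Its direction was opposite at GV, where the value was -0.62. Atg3 was at -0.43 (SE 0.21, adjusted p = 0.559), Wipi2 at -0.40 (SE 0.47), Zfyve1 at -0.27 (SE 0.31), Wipi1 at -0.26 (SE 0.28) and Atg7 at -0.19 (SE 0.51). Atg5 at -0.04 (SE 0.13), Atg4b at -0.02 (SE 0.30) and Atg12 at 0.06 (SE 0.17) were nearest 0. Single libraries set several of these values. Wipi2 was at -0.91 without cKO MII replicate 1 and at -0.06 without cKO MII replicate 3, and Wipi1 was at -0.12 without the latter. Atg3 was at -0.24 and Atg7 at 0.05 without control MII replicate 1, and Atg7 was at -0.04 without control MII replicate 2 and at -0.53 without control MII replicate 3. The median of the members was -0.23 against 0.02 over all genes, and 8 of 10 were negative. That median was -0.09 without cKO MII replicate 3. An adjusted p above 0.05 does not show that the genotypes are alike. On simulated counts the test recovered 34% of genes changed by 1 on the log2 scale at MII and 40% at GV. In each simulation 100 genes changed by 1 and 100 by 2, and all genes shared 1 common spread. Those changed by 2 were all recovered (100%), yet in the real data Pik3c3, at -2.19, was not called at MII. The simulated shares may therefore be too high for these data.

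**Figure D4:**
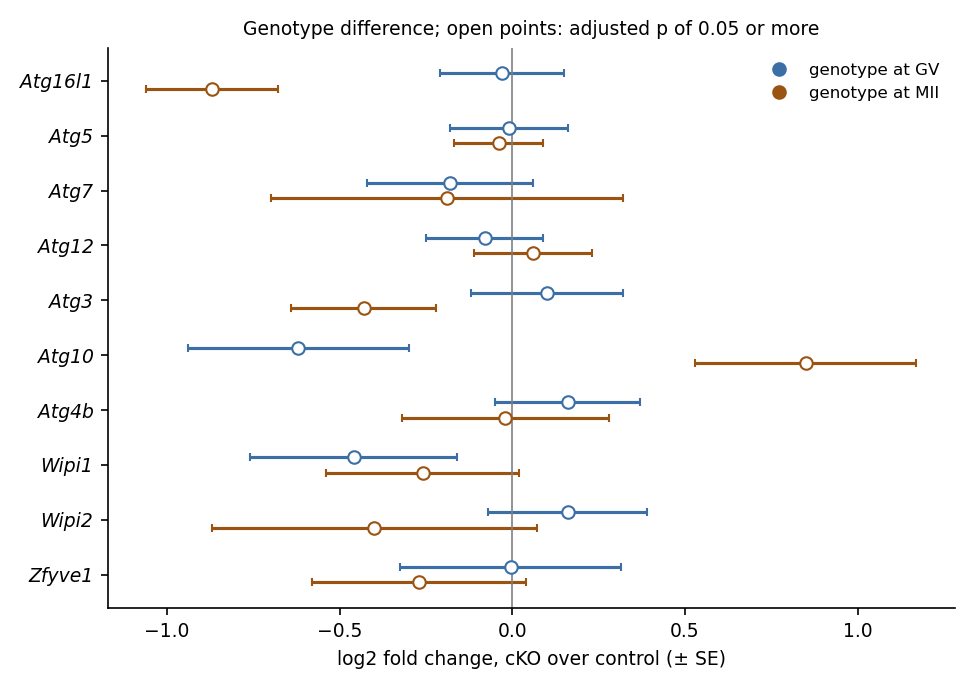
Log2 fold change of cKO over control (± SE) of each gene at GV and at MII, where open points have an adjusted p of 0.05 or more. All points are open, and Atg16l1 at -0.87 and Atg10 at 0.85 lie farthest from 0 at MII.

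The difference between the genotypes in their change from GV to MII was tested directly as an interaction. No member was called (0 of 10, against 0.00862% of 11607 genes, 1 gene), with adjusted p of 0.875 to 0.996. An unadjusted p under 0.05 was found for 2 of 10, against 5.24% of all genes. These were Atg16l1 at -0.85 (SE 0.27, unadjusted p = 0.00574, adjusted p = 0.875) and Atg10 at 1.47 (SE 0.46, unadjusted p = 0.00492, adjusted p = 0.875). Both comparisons within a stage enter these values, so they repeat the differences given above and add no support to them. Atg3 was at -0.54 (SE 0.31) and the other 7 members ran from -0.57 to 0.18.

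Genes whose pattern over the 12 libraries was most like that of the 3 members of highest CPM were sought among 11607 genes. Likeness was the root mean square difference of log2(CPM + 1), each gene centred on its own mean. For Atg16l1 the nearest were the mitochondrial carrier gene Slc25a38 (0.12) and the COP9 signalosome subunit gene Cops8 (0.13). Slc25a38 averaged 31.4, 33.3, 46.7 and 25.7 CPM in control GV, cKO GV, control MII and cKO MII oocytes, and Cops8 237.7, 231, 292 and 172 CPM, highest in control MII and lowest in cKO MII like Atg16l1. For Atg5 the nearest were the cap-binding subunit gene Ncbp2 and the reductase gene Cyb5r4 (0.10 each). For Atg12 they were Pak1ip1 and Pkd2l2 (0.12 each), with Pkd2l2 at 2236 to 2589 CPM in the 4 groups.

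Of 6 other conjugation genes only Rab33b, which encodes a small GTPase that binds ATG16L1, had counts enough for a test. It averaged 7.43 ± 1.85 CPM in control GV and 12.5 ± 3.39 CPM in control MII oocytes, against 8.04 ± 2.10 and 7.59 ± 1.14 CPM in cKO. It was higher at MII in control by TMM scaling (log2 0.90, SE 0.33, adjusted p = 0.0244; -0.78 by ERCC totals) and at 0.05 in cKO, and the difference between these changes was not called (interaction -0.84, SE 0.48, adjusted p = 0.875). Its genotype difference at MII was -0.74 (SE 0.32, adjusted p = 0.546).

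Among 20 other PI3P-binding effectors 17 were tested from GV to MII. In each genotype 5 were higher and 6 lower, with a median log2 fold change of -0.01 in control and -0.08 in cKO. For this and the next lists, the shares of all genes called and the medians over all genes are those given above for the 10 members. Hgs, the ESCRT subunit that sorts ubiquitinated cargo, fell from 90.8 ± 9.23 to 13.3 ± 6.38 CPM in control (log2 -2.66, SE 0.28, adjusted p = 2.63e-07). Rufy1 and Zfyve26 were at -1.62 and -1.84 in control, both called. Zfyve19, which encodes an abscission checkpoint protein, was at -2.84 in control and -3.22 in cKO, both called. These sizes rest on low levels at MII, 2.45 ± 0.723 CPM in control and 2.16 ± 1.91 CPM in cKO. The early endosome tether gene Eea1 was higher at MII than at GV in cKO, 283 ± 29.6 against 145 ± 25.0 CPM. Its log2 fold change there was 1.10 (SE 0.19, adjusted p = 5.02e-05), with -1.32 by ERCC totals. Control oocytes went the same way, from 128 ± 0.795 CPM at GV to 259 ± 16.1 CPM at MII. None of the list was called between genotypes at GV, where Zfyve26 was at 0.36 and Snx3 at -0.33. None was called at MII, where Wdfy2 was at 0.80 and Zfyve21 at -0.57, or in the interaction.

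Of 9 genes of the VPS34 complexes 8 were tested. In control 3 were higher and 3 lower at MII (median log2 fold change -0.04), and in cKO 3 were higher and 2 lower (median 0.36). The deleted gene Pik3c3 is among these, lower in control (log2 -0.74, adjusted p = 0.0307) and higher in cKO (log2 1.02, adjusted p = 0.0496). In cKO its stages overlapped, on 5 to 8 counts per library at GV and 8 to 14 at MII. The scaffold Pik3r4 went from 138 ± 16.5 to 51.4 ± 7.69 CPM in control (log2 -1.28, SE 0.23, adjusted p = 9.34e-05). Ambra1 fell, at log2 -2.20 in control and -2.26 in cKO. Becn1, the core subunit Beclin 1, was at log2 1.48 in control (SE 0.34, adjusted p = 0.000969) and Sh3glb1 at 1.05. By ERCC totals these were -0.33 and -0.66. In cKO Sh3glb1 was at 0.89 (adjusted p = 0.00166), with -1.52 by ERCC totals. Becn1, from 30.65 ± 18.19 to 45.37 ± 10.85 CPM, was not called in cKO. Neither its interaction (-0.76, SE 0.48, adjusted p = 0.875) nor its genotype difference at MII (-0.69, SE 0.30, adjusted p = 0.548) was called. Pik3c3 was the only gene of the 6 lists called between genotypes, at GV (log2 -3.97, SE 0.32, adjusted p = 0.000151).

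In the ULK initiation and ATG9 list 8 of 11 genes were tested, with 2 higher and 3 lower at MII in control (median 0.25) and 2 of each in cKO (median -0.09). Atg101 and Atg13, subunits of the ULK kinase complex, fell, at log2 -2.71 and -3.27 in control and at -3.28 and -1.82 in cKO. Atg13 was low at MII, at 1.43 ± 0.592 CPM in control and 3.63 ± 2.59 CPM in cKO. Its difference between the genotypes' changes was not called (interaction 1.45, SE 0.68, adjusted p = 0.875). Rb1cc1, the scaffold FIP200 of that complex, was at 1.44 in control (adjusted p = 2.71e-06; -0.29 by ERCC totals). Of the ATG8 family 4 of 5 were tested, with 2 lower in control (median -0.54) and 1 in cKO (median -0.33). Map1lc3a, a substrate of ATG4B, ATG7 and ATG3, went from 64.1 ± 8.06 to 4.80 ± 0.865 CPM in control, and the change was -3.60 (SE 0.32, adjusted p = 2.26e-08) in control and -3.47 in cKO. Gabarapl2 was at -0.60 in control (adjusted p = 0.0185).

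Of 13 autophagy receptors 12 were tested, and in each genotype 5 were higher and 6 lower at MII (median -0.42 in control and -0.17 in cKO). Tex264, a receptor for the endoplasmic reticulum, went from 173 ± 6.60 to 16.5 ± 2.17 CPM in control (log2 -3.25, SE 0.21, adjusted p = 5.46e-10). In cKO its change was -4.28, and the interaction of -1.03 was not called (adjusted p = 0.875). Phb2, an inner mitochondrial membrane protein, was at -2.26 in control and -2.65 in cKO. Bnip3, a mitophagy receptor, rose by 2.25 in control and 2.36 in cKO. It was the only tested gene of the 6 lists still positive by ERCC totals, at 0.52 in control (adjusted p = 0.275) and 0.17 in cKO (adjusted p = 0.708). Tax1bp1 was at 1.27 in control and 1.18 in cKO, and by ERCC totals at -0.43 and -1.15. Between genotypes at MII Tex264 was at -0.97 (SE 0.31, adjusted p = 0.530), and no gene of the ULK, ATG8 and receptor lists was called between genotypes or in the interaction.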

How the data were processed

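The table the authors deposited holds raw counts, whole numbers of reads for each gene symbol and for 92 ERCC spike-ins. fastp, HISAT2, featureCounts and mm10 are named per the submitters' processing notes, without versions. Not given in the sources used here are the annotation, whether strand was used, and how multimapping reads were counted. In GENCODE M21 the exons of the 10 genes overlap no exon of another gene. Columns were matched by name: the letter C was read as control and T as cKO, although no title uses either letter, and every genotype direction rests on this. Another 6 columns match no label and were not used. Embryos at the 2-cell stage (6 samples) are not analysed here. The labels name no batch.

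CPM use each library's total over genes, spike-ins left out. Tests ran on all genes in R 4.3.3 with edgeR 4.0.16 (TMM, filterByExpr, robust quasi-likelihood) with Benjamini-Hochberg adjustment over all genes tested and a threshold of 0.05. Genotypes were compared within a stage on 6 libraries. The changes from GV to MII and their difference came from 1 fit of 12 libraries, so the comparisons share libraries. The scripts were tested on simulated data. Alternatives were RLE factors, DESeq2 1.42.0, no filter on low counts, ERCC totals as library sizes, a replicate block and leaving out each library. The members and gene lists were chosen with earlier results of these data known, the lists from textbook knowledge. Named genes are all members, Pik3c3, up to 4 called genes per list and comparison by smallest p (where none was called, up to 2 of the largest change with a mean of 10 CPM or more), and the 2 nearest patterns of 3 members. Groups of 3 limit the precision, and reads without molecular identifiers are not independent molecules.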

Additional observations from a re-analysis of the deposited data

How the results depend on the processing

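Atg7, Atg4b and Wipi2 kept their direction and their call from GV to MII in both genotypes under all 17 alternatives run for each. The calls lost by Atg16l1, Atg5, Atg3 and Wipi1 are given beside their values. With no filter on low counts 4 members in place of 7 were called from GV to MII in control and 5 in place of 7 in cKO, and 1 member, Atg16l1, was called between genotypes at MII; the cause was not tested. ERCC totals as library sizes turned values of both signs. From GV to MII they gave -1.16 for Atg16l1, -1.19 for Atg5, -0.59 for Atg3, -1.68 for Atg10 and -0.85 for Wipi1 in control. In cKO they gave -1.84 for Atg5, -2.20 for Atg12, -1.65 for Atg3, -0.82 for Atg10 and -1.22 for Wipi1. Between genotypes at GV they gave 0.43 for Atg16l1, 0.44 for Atg5, 0.25 for Atg7, 0.33 for Atg12 and 0.51 for Zfyve1, where the median of all genes moved to 0.46. They gave -0.13 for Atg12 at MII, and -0.46 for Atg12 and -0.37 for Wipi1 in the interaction. The other sign changes are of values near 0 that were not called in the fits concerned. RLE factors gave -0.02 for Atg10 from GV to MII in control and 0.01 for Atg7 in the interaction. DESeq2 gave -0.02 and 0.0047 for these and 0.0034 for Zfyve1 at GV. With no filter the first 2 were -0.08 and 0.01.

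The replicate block left the calls of the members at 7 in control, 7 in cKO and 0 in the other comparisons, and turned the sign of Atg4b at MII alone, to 0.03. Same-numbered libraries had deviations from their group means that correlated at -0.226, 0.00587 and 0.211 between genotypes at GV. At MII these correlations were -0.172, -0.064 and 0.0144. Libraries of different number ran from -0.376 to 0.397 at GV. With 3 libraries per group, this cannot tell whether the numbers pair the samples.

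With 1 library left out, the members called were 6 to 7 from GV to MII in either genotype and 0 in the other comparisons. Log2 fold changes that turned sign between genotypes at GV ran from -0.11 to 0.07 for Atg16l1, -0.09 to 0.03 for Atg5, -0.17 to 0.01 for Atg12, -0.04 to 0.19 for Atg3, -0.05 to 0.32 for Atg4b, -0.10 to 0.29 for Wipi2 and -0.19 to 0.18 for Zfyve1. At MII they ran from -0.53 to 0.05 for Atg7, -0.06 to 0.19 for Atg12 and -0.23 to 0.35 for Atg4b. From GV to MII in control they ran from -0.32 to 0.26 for Atg10, -0.13 to 0.11 for Atg12 and -0.24 to 0.11 for Zfyve1. In the interaction they ran from -0.37 to 0.23 for Atg7, -0.40 to 0.17 for Atg4b and -0.09 to 0.03 for Atg5. None of these was called in any fit with 1 library left out. At MII Atg7 and Wipi2 rest on 5 to 19 counts per library, which limits what can be seen between genotypes.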
